A study of Mus musculus with 14 samples.

Results

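The genes described here are 34 markers of the intestinal crypt and of the Wnt and Notch pathways, chosen by name for their known roles and not by their values, and each read from the probe set that carries its symbol alone and has the highest mean level. Of the 34, 32 were tested among 18010 genes, and all 32 passed the filter on dim genes. The levels of Ephb2 and Tcf7 are not analysed here. Jejunal RNA came from 14 mice aged 19 to 21 weeks, fed freely and killed at 7 am. Of these, 7 were LRH-1 WT and 7 were LRH-1 K289R, with 1 Affymetrix array per mouse. LRH-1 is the nuclear receptor encoded by Nr5a2, and K289R puts arginine in place of a lysine that is known to take up the small protein SUMO. The labels call the mice biological replicates and give no sex, strain or litter, and do not say which tissues carry the change. Each sample was a piece of whole jejunum, so epithelium, muscle, stroma and immune cells were measured together.

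The crypt is the pocket of the intestinal lining in which stem cells divide. Wnt ligands, helped by R-spondins that bind Lgr receptors, stabilise beta-catenin, which acts with TCF/LEF factors on stem cell and feedback genes. Notch receptors, engaged by Dll1 and Dll4 on neighbouring cells, switch on Hes1 and hold cells back from secretory fates. LRH-1 is known to act with beta-catenin on crypt renewal and on Ccnd1, which is the background to asking how these genes stand in K289R jejunum.

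The probe sets gave clear villus signal. The 14 tested genes of 15 in the villus enterocyte list (Alpi, Fabp1, Sis and others) had mean log2 levels of 12.73 to 13.09 on WT arrays and 12.80 to 13.06 on K289R arrays. The ileal gene Fabp6 exceeded a log2 level of 8 in 4 mice, namely replicates 1 and 6 of WT and replicates 2 and 7 of K289R. K289R replicate 5 stood apart for proliferation genes and for part of the crypt, Wnt and Notch genes. Of the 19 tested proliferation genes (of 20, such as Mki67 and Top2a) all 19 were lowest on that array, as were 15 of the 32 crypt, Wnt and Notch genes, against 0 to 6 on each other array. Its proliferation mean was 9.04, whereas WT spanned 9.39 to 9.56 and the highest K289R array was at 9.75. The same array had the highest smooth muscle mean, 10.88, with 8 of the 12 listed genes highest there. Related lists followed less. Lowest there were 1 of 58 other Wnt pathway genes, 6 of 39 other Notch pathway genes and 5 of 29 other stem cell and BMP niche genes. The share of all genes lowest or highest on that array was not computed. In tissue pieces fewer crypt cells and less RNA per crypt cell cannot be told apart.

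Promoter sequences are shown for 3 genes because they hold, in turn, the only window with both a TCF/LEF and an RBPJ match (Sp5), the partner in the closest co-varying pair (Ephb3) and the largest genotype difference (Dll1). They are RefSeq sequences of assembly GRCm38.p6 that run from 250 bases before to 50 after the start of the gene, printed 5′ to 3′ on the gene's strand, in lower case with motif matches in capitals. The Sp5 window is chr2:70474673-70474972 on the plus strand, that of Ephb3 is chr16:21204545-21204844 on the plus strand, and that of Dll1 is the first of its 2 entries, chr17:15375774-15376073 on the minus strand.
Sp5: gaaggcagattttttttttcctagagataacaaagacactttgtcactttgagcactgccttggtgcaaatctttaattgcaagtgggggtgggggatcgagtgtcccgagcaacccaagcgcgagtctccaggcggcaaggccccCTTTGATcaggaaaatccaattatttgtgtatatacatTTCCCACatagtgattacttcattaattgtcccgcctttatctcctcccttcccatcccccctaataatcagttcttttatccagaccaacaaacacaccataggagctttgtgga
Ephb3: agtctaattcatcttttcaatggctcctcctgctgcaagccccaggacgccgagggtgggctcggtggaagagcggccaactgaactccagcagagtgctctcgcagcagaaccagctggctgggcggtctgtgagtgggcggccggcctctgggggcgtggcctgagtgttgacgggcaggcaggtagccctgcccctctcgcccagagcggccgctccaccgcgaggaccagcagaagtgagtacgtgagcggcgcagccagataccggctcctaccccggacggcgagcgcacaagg
Dll1: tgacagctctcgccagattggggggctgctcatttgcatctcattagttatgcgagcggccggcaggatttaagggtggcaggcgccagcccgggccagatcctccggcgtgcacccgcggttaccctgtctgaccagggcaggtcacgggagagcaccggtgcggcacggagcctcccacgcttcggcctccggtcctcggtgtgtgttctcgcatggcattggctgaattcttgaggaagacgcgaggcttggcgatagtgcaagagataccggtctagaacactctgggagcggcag

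The motifs searched, on both strands, were ATCAAAG for TCF/LEF, GTGGGAA for RBPJ, the DNA-binding partner of Notch, and AAGGTCA for LRH-1. Of the 34 genes, 22 had a promoter in the table, with 32 windows. The TCF/LEF letters were in the windows of Sp5 and Tnfrsf19, the RBPJ letters in those of Sp5, Cdca7 and Lef1, and the LRH-1 letters in that of Tcf7. In the Sp5 window the TCF/LEF match begins at −104 and the RBPJ match at −66, both on the opposite strand to the gene and counted to their first base in the window. Among 32851 windows of the same length, 3.73% hold the TCF/LEF letters, 6.38% the RBPJ letters and 4.72% the LRH-1 letters.

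No crypt, Wnt or Notch gene differed between the genotypes beyond the threshold. With limma and Benjamini-Hochberg adjustment over 18010 genes, 0 of the 32 passed (lowest adjusted p = 0.381), where 0.0444% of all genes tested, 8 in number, passed. At an unadjusted p under 0.05 there were 3 of the 32, namely Dll1 and Dll4 (lower) and Rspo3 (higher), against 8.48% of all genes (4.43% higher and 4.05% lower), and these 3 make 9.38% of the 32. Levels were higher in K289R for 16 genes and lower for 16, with a median difference of 0.0019 on the log2 scale, beside −0.0039 over all genes. The median size of the difference was 0.052 among the 32 and 0.057 over all genes, with median standard errors of 0.082 and 0.067. No gene of the 32 had arrays that did not overlap between the genotypes, as 0.167% of all genes had.

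**Figure D1:**
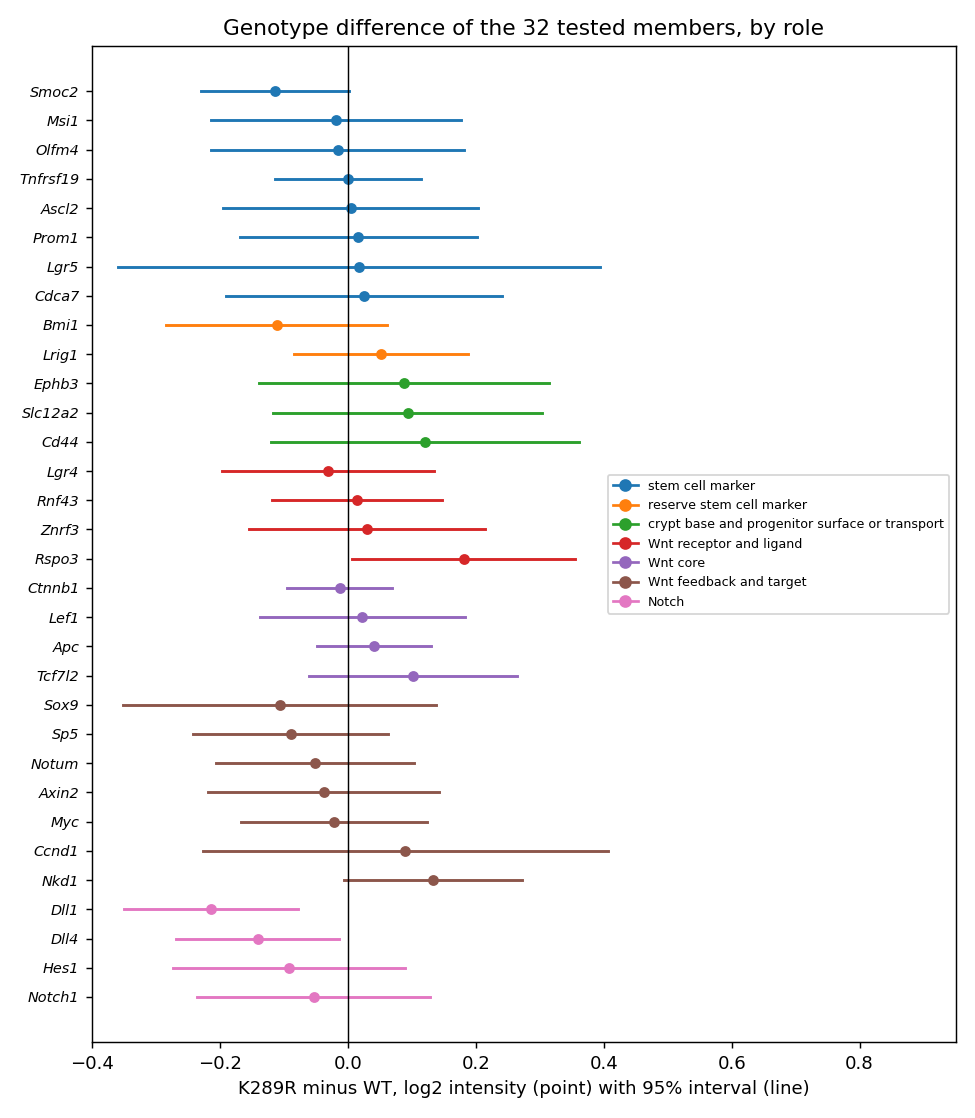
Difference K289R minus WT in log2 intensity (x axis) for each of the 32 tested genes (y axis, grouped and coloured by role); points are limma estimates and lines their 95% intervals, 7 mice per genotype. The intervals of Dll1, Dll4 and Rspo3 do not cross 0, and all 4 Notch genes lie to the left of 0.

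The Notch ligand Dll1, which marks early secretory progenitors, had the largest difference. Its log2 level ran from 9.05 through a median of 9.25 to 9.43 in WT and from 8.91 through 9.04 to 9.15 in K289R. All 7 K289R arrays were below the WT mean, yet the groups overlapped, since WT replicates 1 and 6 were at 9.05 and 9.10. The mean was 9.24 ± 0.14 in WT against 9.02 ± 0.090 in K289R (SD, n = 7 each), a difference of −0.21 (SE 0.064, 95% interval −0.35 to −0.08) and a fold of 0.862. It did not pass over all genes (limma adjusted p = 0.381), and the exact permutation test gave p = 0.00466 before adjustment. A second, dimmer Dll1 probe set differed by −0.023 (exact permutation p = 0.763), and the mean over both by −0.12. With that mean Dll1 no longer had an unadjusted p under 0.05 by limma, so the result depended on the probe set. Over 27 alternative fits the Dll1 difference kept its sign, between −0.27 and −0.12, and its lowest adjusted p by limma was 0.119, with the T cell mean as a covariate.

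Dll4, the other Dll ligand of the crypt and also a gene of blood vessel endothelium, was next. It ran from 8.94 through 9.01 to 9.29 in WT and from 8.81 through 8.88 to 9.08 in K289R, and 6 of 7 K289R arrays were below the WT mean. The difference was −0.14 (SE 0.061, 95% interval −0.27 to −0.01), with a limma adjusted p of 0.532 and an exact permutation p of 0.0297. Without the 4 arrays with Fabp6 signal it was −0.094. The 8 endothelial genes had means of 7.93 to 8.69 (WT) and 7.98 to 8.67 (K289R). All 8 were higher in K289R, where 48% of all genes were higher, and 0 had an unadjusted p under 0.05 by limma. Within genotype Dll4 had r = −0.446 with the endothelial mean (rho = −0.38, adjusted permutation p = 0.219 and 0.345). The part of endothelium in the Dll4 difference was not tested.

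The receptor Notch1 and the target Hes1 showed smaller differences than their spread. Notch1 had a mean of 9.003 ± 0.16 in WT against 8.95 ± 0.19 in K289R (SD, n = 7 each). Hes1, a repressor of secretory fate, had 9.04 ± 0.15 against 8.95 ± 0.19 (SD, n = 7 each). Their 95% intervals were −0.24 to 0.13 and −0.27 to 0.09. Hes1 was lowest on K289R replicate 5, at 8.56. Among 39 other Notch pathway genes tested (of 40), 0 had an unadjusted p under 0.05 by limma, against 8.48% of all genes, 0 passed after adjustment, and 20 were higher and 19 lower. Those with the smallest p were Hes2 (−0.20, SE 0.098), Hes6 (−0.10, SE 0.051), Rbpj (0.14, SE 0.073) and Dtx3 (0.18, SE 0.091), and the adjusted p of each was at least 0.604.

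Rspo3, an R-spondin made by stromal cells around the crypt base, was higher in K289R on average. It ran from 7.68 through 7.89 to 7.96 in WT and from 7.78 through 7.996 to 8.30 in K289R, where replicates 3 and 5 were highest and replicates 1 and 6 lay below the WT mean. The difference was 0.18 (SE 0.082, 95% interval 0.01 to 0.35), with a limma adjusted p of 0.558 and an exact permutation p of 0.0664. The fibroblast and matrix list was also higher, in 10 of 11 genes, with means of 9.37 to 9.82 (WT) and 9.48 to 9.93 (K289R). The smooth muscle list was higher in 10 of 12 genes, where 48% of all genes were higher. At an unadjusted p under 0.05 by limma, 5 of the 11 and 7 of the 12 were higher, against 4.43% of all genes. In both lists 0 passed after adjustment. Rspo3 differed by 0.14 once the smooth muscle mean entered the fit. Fits without 1 array gave between 0.14 and 0.22. Within genotype Rspo3 did not track the fibroblast mean (r = 0.139, Spearman rho = 0.121, permutation p = 0.634 and 0.672, adjusted p = 0.698 and 0.784). With the smooth muscle mean r was 0.162 (rho = 0.371, adjusted permutation p = 0.698 and 0.396), but it hung on single arrays. It was 0.68 without the 2 arrays farthest from the smooth muscle median, −0.0858 without K289R replicate 5 and 0.867 without K289R replicate 3. The part of stromal and muscle cells in the Rspo3 difference was not tested.

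The receptors and their turnover enzymes stayed within their spread. Lgr4, an R-spondin receptor, had a mean of 11.28 ± 0.18 in WT against 11.25 ± 0.13 in K289R (SD, n = 7 each). Rnf43 and Znrf3, ubiquitin ligases that clear Wnt receptors from the surface, differed by 0.01 (SE 0.063) and 0.03 (SE 0.087). Of the core of the pathway, Ctnnb1, the beta-catenin gene, had the narrowest spread of levels, 12.17 to 12.29 in WT and 12.16 to 12.28 in K289R. Its difference of −0.01 had a 95% interval of −0.09 to 0.07. Apc, a scaffold for beta-catenin breakdown, differed by 0.04 (SE 0.042), Lef1 by 0.02 (SE 0.076) and Tcf7l2, the main TCF factor of the intestine, by 0.10 (SE 0.077). None of these passed.

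Feedback and target genes of Wnt went both ways, 2 higher and 5 lower. Nkd1, an inhibitor that Wnt signalling induces, ran from 7.92 through 7.95 to 8.21 in WT and from 7.93 through 8.15 to 8.35 in K289R, with 6 of 7 K289R arrays above the WT mean. Its difference of 0.13 (SE 0.066) had a limma adjusted p of 0.604 and was 0.040 once the smooth muscle mean entered the fit. Axin2, the classical feedback gene, had a mean of 9.03 ± 0.18 in WT against 8.996 ± 0.16 in K289R (SD, n = 7 each), with a 95% interval of −0.22 to 0.14. Its second probe set differed by −0.077. Notum, an enzyme that inactivates Wnt ligands, differed by −0.05 (SE 0.073) and the transcription factor gene Sp5 by −0.09 (SE 0.072). Sox9, a factor of crypt base and Paneth cells, was at −0.11 (SE 0.116), Myc at −0.02 (SE 0.069) and Ccnd1, which encodes cyclin D1 and is a known target of LRH-1 with beta-catenin, at 0.09 (SE 0.150). The 95% interval of Ccnd1, −0.23 to 0.41, was among the widest. Among the 58 tested of 61 other Wnt pathway genes, 0 passed after adjustment by limma, and 4 were higher and 4 lower at an unadjusted p under 0.05, where 4.43% of all genes were higher and 4.05% lower. Their median difference was 0.022. Fzd6, a frizzled receptor gene (0.32, SE 0.080, adjusted p = 0.2503), and Bcl9, a co-activator of beta-catenin (0.27, SE 0.095), were higher, and Sfrp5, a secreted Wnt inhibitor (−0.26, SE 0.082), and Dvl3 (−0.15, SE 0.054) lower.

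Among the stem cell markers the differences of 7 of the 8 lay between −0.02 and 0.03, and that of Smoc2 was larger. Lgr5, the receptor that marks cycling stem cells, ran from 8.90 through 9.33 to 9.70 in WT and from 8.62 through 9.52 to 9.89 in K289R. WT replicates 2, 5 and 6 were between 9.64 and 9.70, while WT replicates 3, 4 and 7 were between 8.90 and 9.07, so mice of 1 genotype differed by more than the genotypes did. Some other cell type lists, though not all, moved with this spread on these 6 arrays. WT replicate 1 did not follow for the endothelial list, with an Lgr5 level of 9.33 and the lowest endothelial mean, 7.93. The endothelial mean was 8.58 to 8.69 on WT replicates 2, 5 and 6 and 8.04 to 8.08 on WT replicates 3, 4 and 7. The fibroblast mean was 9.72 to 9.82 against 9.37 to 9.42, and the Paneth cell mean 12.86 to 12.93 against 12.40 to 12.69. The villus enterocyte mean ran the other way, 12.91 to 12.96 against 13.01 to 13.09, as did the enteroendocrine mean. The T cell and smooth muscle means overlapped between these sets of arrays. In K289R the lowest Lgr5 levels, on replicates 5 and 1, came with the lowest endothelial means, 7.98 and 8.11. K289R replicate 3, with the next Lgr5 level, 9.23, had an endothelial mean of 8.63. The fibroblast mean was 9.48 on K289R replicate 1 but 9.74 on K289R replicate 5, within the range of WT replicates 2, 5 and 6. The part of these cells in the Lgr5 level was not tested. The difference of 0.02 (SE 0.179) had a 95% interval of −0.36 to 0.39, which leaves a wide range of possible effects. It changed sign in 12 of 27 alternatives, and fits without 1 array gave from −0.073 (without K289R replicate 2) to 0.14 (without K289R replicate 5). A second, dimmer Lgr5 probe set (mean 7.06, against 9.34 for the one used) differed by −0.12 (exact permutation p = 0.00816, unadjusted), with the opposite sign. That value lies inside the wide interval of the first, and the difference between the probe sets was not tested. Olfm4, a secreted glycoprotein gene of the crypt base, had a narrow range in WT, 12.47 through 12.55 to 12.68. In K289R it ran from 11.99 through 12.67 to 12.74, with replicate 5 far below the other 6. Its difference was −0.02 with that array and 0.078 without it, and −0.092 without the 4 arrays with Fabp6 signal. Smoc2, a matrix-associated protein gene of Lgr5 cells, was below the WT mean on all 7 K289R arrays, from 9.69 ± 0.085 (SD, n = 7) to 9.57 ± 0.10 (SD, n = 7), a difference of −0.11 (SE 0.055, limma adjusted p = 0.597). Cdca7, a chromatin-associated gene of dividing cells, had an SD of 0.07 in WT and 0.29 in K289R, and 0.151 in K289R without replicate 5.

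**Figure D2:**
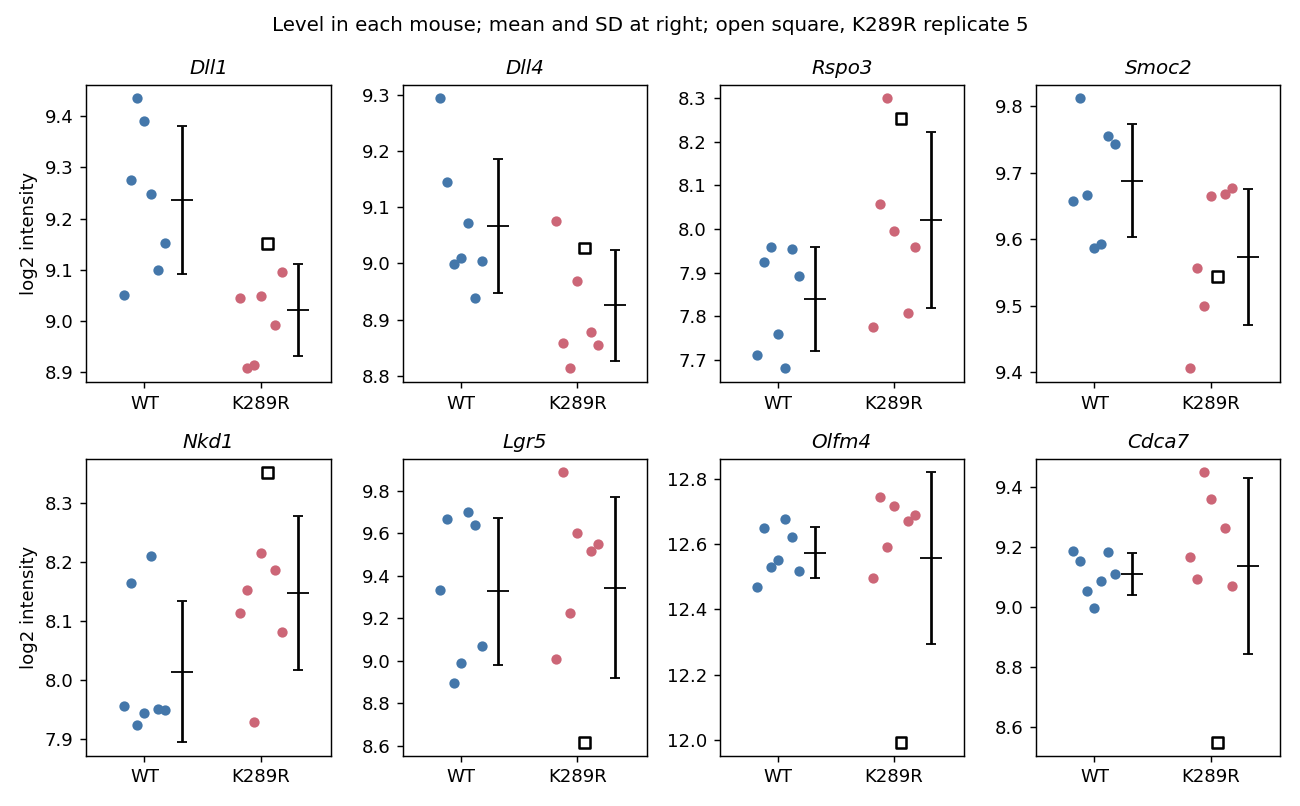
Log2 intensity (y axis, its own range in each panel) of 8 genes in each of 14 mice (points, WT in blue and K289R in red), with mean and SD at the right of each group and K289R replicate 5 as an open square. Every group overlaps the other, and Lgr5, Olfm4 and Cdca7 are lowest in K289R replicate 5.

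Other markers of crypt cells gave small differences with intervals that held 0. Ascl2, a transcription factor of Lgr5 cells, was at 7.97 ± 0.17 (SD, n = 7) and 7.98 ± 0.22 (SD, n = 7). Tnfrsf19 differed by −0.0004 (SE 0.054), Msi1, an RNA-binding protein gene, by −0.02 (SE 0.093) and Prom1, which encodes a surface protein of crypt cells, by 0.02 (SE 0.088). The reserve stem cell markers were Lrig1 (0.05, SE 0.065), a brake on growth factor receptors, and the polycomb gene Bmi1 (−0.11, SE 0.082). The surface and transport genes Cd44 (0.12, SE 0.114), the ephrin receptor gene Ephb3 (0.09, SE 0.107) and the ion cotransporter gene Slc12a2 (0.09, SE 0.0996) were each lowest on K289R replicate 5. Without that array Cd44 differed by 0.21 and Slc12a2 by 0.19, with limma adjusted p of 0.432 and 0.297. The Cd44 difference was 0.065 without K289R replicate 2 and 0.035 without the 4 arrays with Fabp6 signal, and that of Slc12a2 was 0.062 without K289R replicate 2 and 0.058 without K289R replicate 3. Of 29 tested genes of a further stem cell and BMP niche list (of 30), 0 passed after adjustment by limma, and 4 were higher and 1 lower at an unadjusted p under 0.05, beside the same 4.43% and 4.05% of all genes. The smallest p values were those of Egfr (0.22, SE 0.079), Aqp4 (0.34, SE 0.124), the BMP antagonist gene Grem1 (0.24, SE 0.096) and the stromal gene Pdgfra (0.37, SE 0.152), and the lowest adjusted p of these was 0.436.

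While the genotypes differed little, many of these genes rose and fell together from mouse to mouse within a genotype. After the genotype mean was taken from each gene, 132 of 496 pairs (26.6%) had a Pearson r over 0.5 over the 14 arrays, against 8.16% of all pairs of genes tested. The median r was 0.17 among the 496 pairs and −0.0043 over all pairs of genes. Without K289R replicate 5, 87 pairs (17.5%) had an r over 0.5, against 8.98%, and the median was 0.167. Within WT alone the median was 0.225 and within K289R alone 0.211. These shares are descriptions, since the genes were chosen as related.

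**Figure D3:**
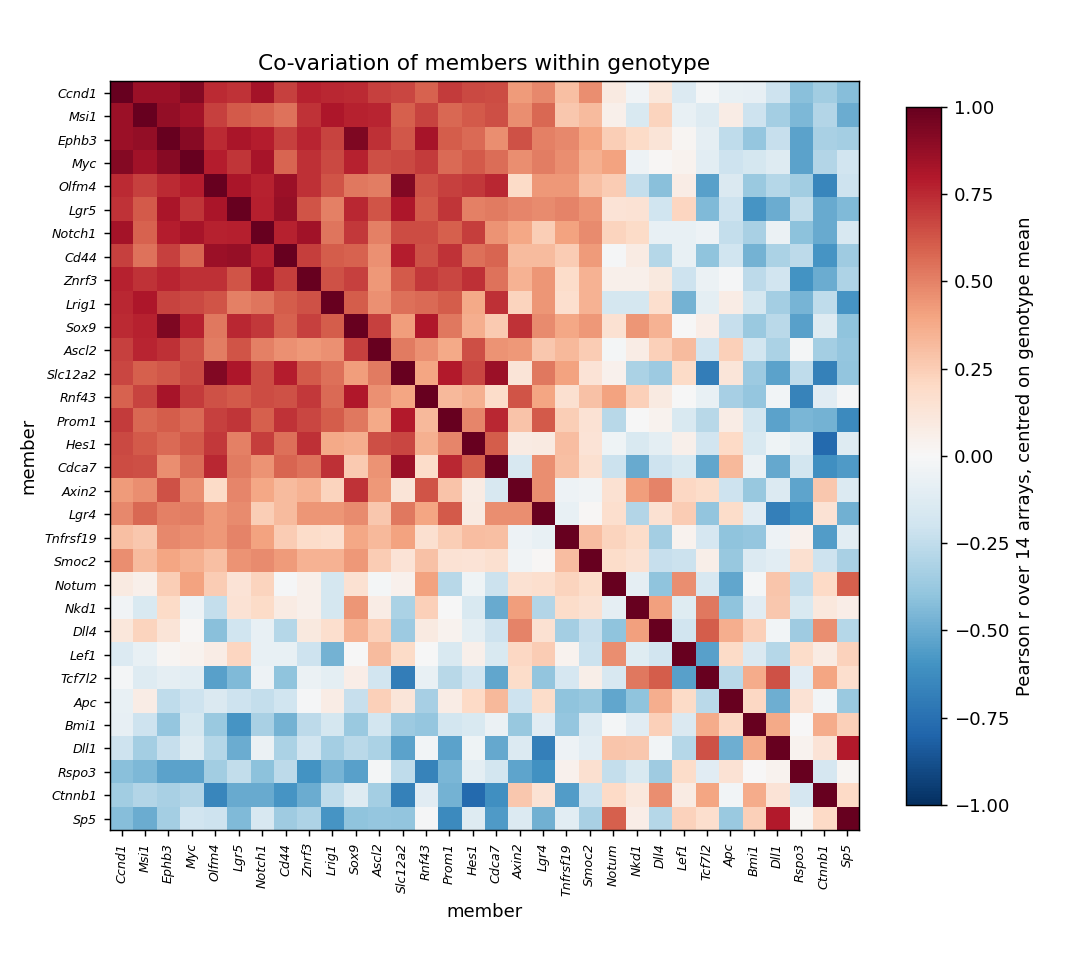
Pearson r over 14 arrays between every pair of the 32 tested genes (both axes, in the order of their median r with the others), after the genotype mean was taken from each; red is positive and blue negative. The upper left block from Ccnd1 to Cdca7 is nearly all positive, while Dll1, Rspo3, Ctnnb1 and Sp5 at the lower right are mostly negative against it.

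Genes from several roles made up the co-varying block. All 17 genes from Ccnd1 to Cdca7 in the order of median r ran against the villus enterocyte mean, with r from −0.666 (Lgr5) to −0.146 (Hes1), as descriptions over the same 14 arrays. This was not particular to the block, as genes outside it went both ways. Lgr4 (−0.844) and Axin2 (−0.648) ran against the villus mean, and Dll1 (0.654) and Sp5 (0.579) with it. These values were not computed without K289R replicate 5, where the villus mean was 13.06, nor over all genes. The part of the villus share in this pattern was not tested. Ccnd1, Olfm4 and Lgr5 each had 16 partners with r over 0.5 among the other 31 genes, and Msi1, Ephb3 and Myc each had 17. By a permutation test within genotype, adjusted over the 496 pairs, 29 pairs passed by Pearson r, and 13 of the 29 also by Spearman rho. Of the 29, 27 were positive and 2 negative. The highest r was that of Ephb3 with Sox9, 0.935 (rho = 0.916, permutation p = 9e-05 and 4e-05, adjusted p = 0.0107 and 0.0124). It was 0.949 without the 2 arrays farthest from the Ephb3 median and 0.966 without K289R replicate 5. Myc with Ccnd1 had r = 0.916 (rho = 0.881, permutation p = 3e-05 and 2e-04, adjusted p = 0.0107 and 0.0208), and 0.813 and 0.831 in the same reduced sets. Ephb3 with Myc had r = 0.910 (rho = 0.877, permutation p = 0.00011 and 0.0003, adjusted p = 0.0107 and 0.0213), and 0.825 without the 2 farthest arrays. Msi1, the RNA-binding protein gene, with Ephb3 had r = 0.880 (rho = 0.842, permutation p = 0.00018 and 0.00103, adjusted p = 0.0124 and 0.039), and 0.732 without the 2 farthest.

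The pair of Olfm4 and Slc12a2 rested on a single array in part. Its r of 0.922 (permutation p = 0.00244, adjusted p = 0.0498) was 0.617 without K289R replicate 5 and 0.644 without the 2 farthest arrays, and its rho of 0.692 did not pass (permutation p = 0.0103, adjusted p = 0.119). The lowest r was that of Ctnnb1 with Hes1, −0.775 (rho = −0.631, permutation p = 0.00238 and 0.0191, adjusted p = 0.0498 and 0.151), and −0.652 without the 2 farthest arrays. Slc12a2 with Tcf7l2 had r = −0.690 (rho = −0.714, permutation p = 0.0107 and 0.00512, adjusted p = 0.0985 and 0.0827), and −0.431 without the 2 farthest. Lgr4 with Dll1 had r = −0.686 (rho = −0.591, permutation p = 0.0127 and 0.0384, adjusted p = 0.102 and 0.209), and −0.506 without them. The last 2 pairs did not pass. The negative pair that passed by both measures was Cdca7 with Sp5, a pair singled out after its values were seen, with r = −0.567 (rho = −0.842, permutation p = 0.0002 and 0.00005, adjusted p = 0.0124 for both). It had r = −0.745 without the 2 farthest arrays and −0.733 without K289R replicate 5.

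Membership of the block shifted with K289R replicate 5. Without it Cdca7 and Hes1 went from 11 and 12 partners over 0.5 to 1 each, Axin2 from 3 to 10 and Nkd1 from 1 to 11. Sox9 kept its count of 14, and Lgr5 had 12. Tnfrsf19, Smoc2, Lef1, Apc, Bmi1, Rspo3 and Ctnnb1 had 0 partners over 0.5 with all arrays.

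**Figure D4:**
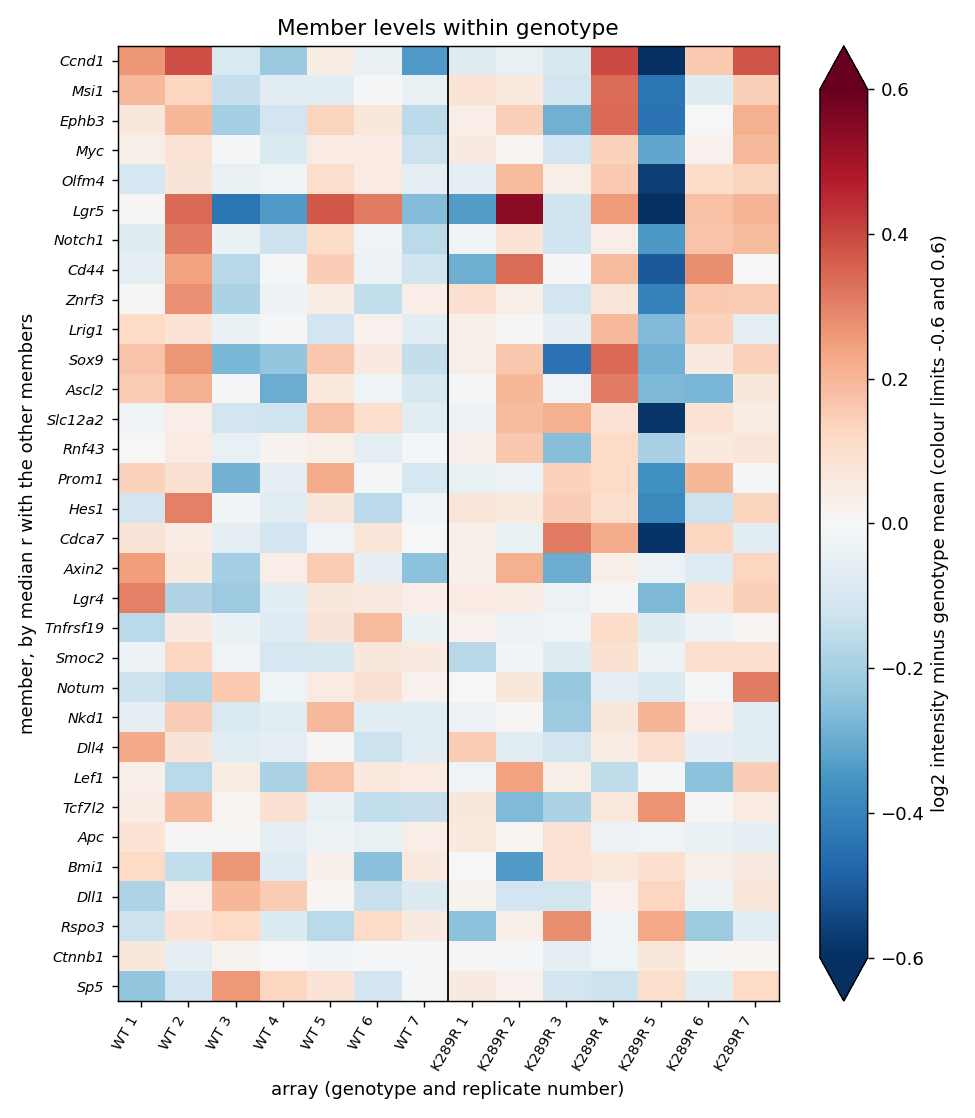
Log2 intensity minus the genotype mean (colour, limits −0.6 and 0.6) of the 32 tested genes (rows, by median r with the others) on 14 arrays (columns, WT left and K289R right of the line). K289R replicate 5 is low from Ccnd1 to Cdca7 but not for Axin2, and WT replicates 2 and 5 are high for Lgr5 where WT replicates 3 and 4 are low.

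A set of 28 relations with a known rationale was tested apart, 18 between genes of the pathways and 10 between a gene and a list mean, with p values adjusted over the 28. By Pearson r 5 passed, 2 of them also by Spearman rho. Lgr5 with Olfm4 had r = 0.816 (rho = 0.780, permutation p = 0.00013 and 0.00036, adjusted p = 0.00182 and 0.00504), and 0.799 without the 2 arrays farthest from the Lgr5 median. It passed in all 21 alternatives, with r from 0.768 to 0.847. Myc with Ccnd1 did so too, with r from 0.831 to 0.935. Axin2 with Rnf43 had r = 0.631 (rho = 0.596, permutation p = 0.00494 and 0.0159, adjusted p = 0.0346 and 0.111), and 0.481 without the 2 farthest arrays. It passed in 11 of 21 alternatives. It did not pass after quantile normalization, with the mean over probe sets, without centring, with smooth muscle and T cell means regressed out or without the arrays with Fabp6 signal. The same held without WT replicate 3 or 5 or K289R replicate 1, 2 or 3, with the lowest r, 0.428, without the last of these (adjusted permutation p = 0.122). Rnf43 with Znrf3, its paralogue, had r = 0.706 (rho = 0.749, adjusted permutation p = 0.0536 and 0.0440). Pairs named together as Wnt feedback genes did not all move together, as Axin2 had r = −0.137 with Sp5 and r = 0.153 with Notum (rho = −0.090 and 0.051, adjusted permutation p by Pearson 0.698 for both).

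Over the 14 arrays, 12 of the 17 genes of the block had r over 0.5 with the proliferation list, given here with no test. Among them were Lrig1 (0.789), Prom1 (0.777), Slc12a2 (0.755) and Ccnd1 (0.737). All 19 proliferation genes were lowest on K289R replicate 5. The count of 12 and the values of Lrig1, Prom1, Slc12a2 and Ccnd1 were not computed without that array. The share of all genes with r over 0.5 to the proliferation list was not computed either. The 17 genes were themselves picked by their r with each other over the same 14 arrays, so the count is a description only. Cdca7 followed the mean of the 19 proliferation genes with r = 0.929 (rho = 0.692, permutation p = 0.00115 and 0.0281, adjusted p = 0.0107 and 0.124) and 0.750 without the 2 farthest arrays. It did not pass without K289R replicate 5 (r = 0.783, adjusted permutation p = 0.105), nor without the 4 arrays with Fabp6 signal (r = 0.949, adjusted permutation p = 0.0624). Olfm4 had r = 0.735 (rho = 0.327, adjusted permutation p = 0.177 and 0.498) and Lgr5 r = 0.495 (rho = 0.182, 0.219 and 0.674), and these were 0.237 and 0.227 without the 2 farthest arrays. Without K289R replicate 5 alone they were 0.0127 and 0.0517. Myc had r = 0.556 (rho = 0.20, adjusted permutation p = 0.219 and 0.674). It was 0.308 without the 2 farthest arrays and −0.0919 without K289R replicate 5. The relations of Olfm4, Lgr5 and Myc with the proliferation list thus rested in large part on that array. With the proliferation mean regressed out, Lgr5 and Olfm4 still had r = 0.768 (adjusted permutation p = 0.0136). Olfm4 with the Paneth cell mean (7 tested genes of 10) had r = 0.602 (rho = 0.534, adjusted permutation p = 0.0403 and 0.149), which fell to 0.429 without the 2 farthest arrays and to 0.496 (adjusted permutation p = 0.276) without K289R replicate 5. It passed in 7 of 21 alternatives. It also did not pass without WT replicate 2, 3, 5 or 6 or K289R replicate 1, 2 or 7, without the arrays with Fabp6 signal, after quantile normalization, with the mean over probe sets, without centring, or with other list means regressed out. For Fabp6 the arrays fell into separate sets of 4 and 10, so no r was computed for it with Lgr5 or Olfm4, and its relation with them was not tested.

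**Figure D5:**
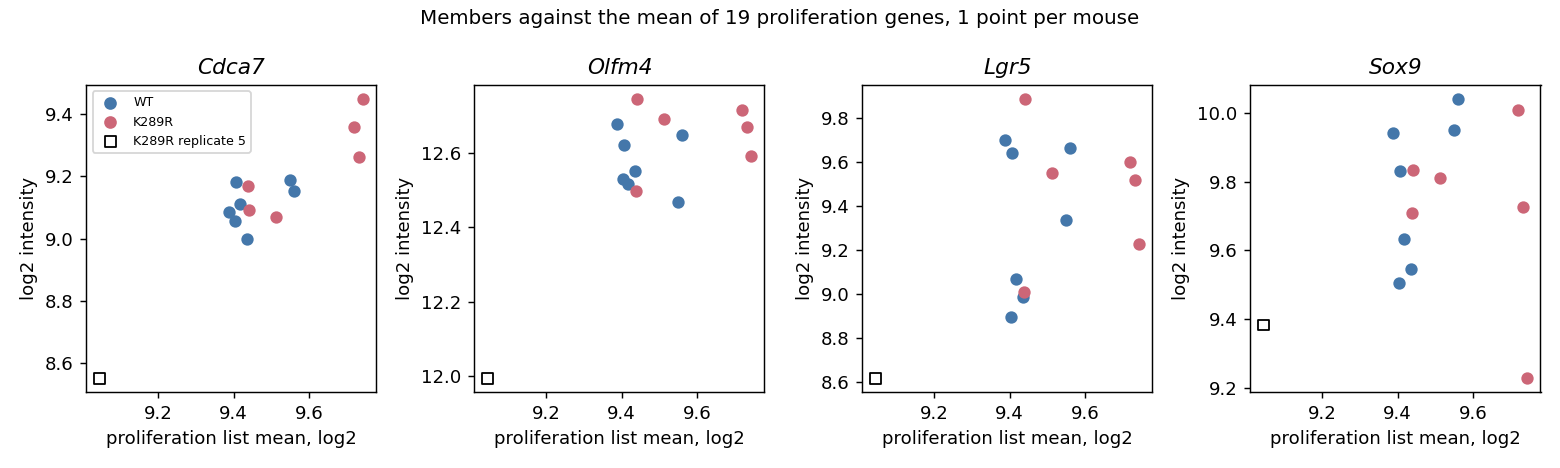
Log2 intensity of Cdca7, Olfm4, Lgr5 and Sox9 (y axes) against the mean log2 intensity of 19 proliferation genes (x axis), 1 point per mouse, with K289R replicate 5 as an open square. K289R replicate 5 has the lowest list mean, 9.04, and the lowest Cdca7, Olfm4 and Lgr5, but Sox9 is lowest on another array.

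The tested genes closest to a marker over the 14 arrays are named as a description, and as the highest of all genes they carry no test. Most were outside the crypt, Wnt and Notch list, which holds only 32 of the 18010 genes tested. Bmp7, of the further stem cell and BMP niche list, was nearest to Lgr5 (r = 0.964). P2ry6 (0.949), Hpse2 (0.948), Adamdec1 (0.945) and the endothelial gene Vwf (0.938) followed. Each of these genes had an r of at least 0.908 without K289R replicate 5. Nearest to Olfm4 were Far2 (r = 0.951), Slc12a2 (0.922), Uck2 (0.920), Phka1 (0.920) and Rad18 (0.910), which fell to between 0.582 and 0.749 without that array. Axin2 was nearest to Gm21269 (r = 0.916), Tmem141 (0.905), Capn5 (0.875), the oxidase gene Duox2 (0.867) and Prss30 (0.861), and without that array these were between 0.862 and 0.917. Hes1 was nearest to Thrap3 (r = 0.874), Nol9 (0.855), Thg1l (0.850), Gtf3c4 (0.830) and Srsf2 (0.829), with 0.646 to 0.767 without it.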

How the data were processed

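Per the deposited table each array has the linear intensity of 41345 probe sets, with medians of 168 to 174. The authors used Affymetrix Expression Console, per the submitters' processing notes, whereas the sources used here do not state its version, summarisation or normalization. Background left in the intensity compresses differences of dim genes. Values were log2-transformed. Of the probe sets 23521 had 1 gene symbol, 1814 several and 16010 none, giving 22180 genes, of which 18010 had a mean of at least the 25th percentile (log2 6.246). The test of each difference was that of limma 3.58.1 (R 4.3.3, 2-sided, no covariate, Benjamini-Hochberg, threshold 0.05, 95% intervals), and single genes also by an exact permutation test over 3432 splits (smallest p 0.000583). Correlations used values centred on the genotype mean and 100000 permutations within genotype, 2-sided. The steps were tested on simulated data. The smallest root mean square difference between arrays was 0.16 (log2), and no arrays were identical.

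Genes with an unadjusted p under 0.05 were named in full, all others with their level or difference, and fuller values outside this rule, those tied to K289R replicate 5 among them, were chosen after seeing them. The pairs named are the 5 highest and 3 lowest. From the other Wnt, Notch and niche lists the 4 with the smallest p were named. The members, lists and alternatives were chosen with earlier results of these data known. Alternatives were other normalizations, filters, probe set rules, limma options, a replicate block, list means as covariates and fewer arrays.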

Additional observations from a re-analysis of the deposited data

Results flagged for a closer look

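A sample far from the others of its group was found in 5 of 64 gene and genotype groups, all in K289R, where about 1 in 20 would be flagged by chance. The measure is the gap of the outermost array to its neighbour as a share of the group's range, set against Dixon's 95% critical value for 7 arrays. K289R replicate 5 was the outermost in 4 of the 5, always as the lowest. There Olfm4 was at 11.99 with the next array at 12.50 (share 0.670), Slc12a2 at 10.96 against 11.51 (0.693), Cdca7 at 8.55 against 9.07 (0.579) and Prom1 at 9.68, also below the other 6 (0.572). Bmi1 was lowest on K289R replicate 2, at 6.26 against 6.60 (0.772).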

How the results depend on the processing

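No crypt, Wnt or Notch gene passed in any of 27 alternative fits (lowest adjusted p = 0.119 by limma). Their differences changed sign in 84 of 862 refits, over 17 of the 32 genes, and kept it for 15. The number of all genes past the threshold was 8, and it was 14 with array weights, 13 with the T cell mean as a covariate, 5 without the 4 arrays with Fabp6 signal, and from 4 to 14 when 1 array was left out, with 4 when replicate 3 or 4 of WT or replicate 4 of K289R was out, 5 without K289R replicate 7 and 14 without K289R replicate 5. With the replicate block 0 passed by limma, with 1465 genes at an unadjusted p under 0.05. The labels do not say whether same-numbered mice shared more than a number. Correlations of their deviations ran from −0.151 to 0.169, and 0 of 7 WT arrays were closest to their own number. A litter or batch shared by number was not tested. The 3 genes of the list with an unadjusted p under 0.05 became 5 with the proliferation mean in the fit, an alternative added after seeing the data, where 9.07% of all genes did so, and from 1 to 4 with 1 array left out (6.57% to 11.4% of all genes). It was Dll1 alone without WT replicate 1 or K289R replicate 2. Rspo3 with the smooth muscle mean had r = 0.162 (rho = 0.371, adjusted permutation p = 0.698) and r = 0.867 without K289R replicate 3 (adjusted permutation p = 0.00765). The cause of these changes was not tested. The median r between the genes was from 0.14 to 0.203 in all alternatives.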
